A study of Mus musculus with 10 samples.

Results

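Genes of branched-chain amino acid catabolism were examined in the left ventricle of control mice and of mice with heart failure with preserved ejection fraction (HFpEF) induced by a high-fat diet and moderate transverse aortic constriction (HFD+mTAC). The 10 genes are Bcat2, Bckdha, Bckdhb, Dbt, Bckdk, Ppm1k, Ivd, Mccc1, Hibadh and Pccb, out of 29564 genes listed in the data. The family was chosen by a measured value, the fall of Bckdhb in HFD+mTAC mice, so the change of Bckdhb is given as a description and supports nothing. The other 9 genes were taken as members of the same pathway. All 10 passed the filter on low counts (at least 1 count in at least 9 of 10 mice), which left 13298 protein-coding nuclear genes for testing.

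Leucine, isoleucine and valine are first stripped of their amino group by a transaminase, and the resulting keto acids are oxidized in the mitochondrial matrix by the branched-chain keto acid dehydrogenase complex, the committed step of the pathway. A kinase switches this complex off by phosphorylating its E1 component and a phosphatase switches it on again. The 3 carbon skeletons then follow separate routes that end in acetyl-CoA, acetoacetate or propionyl-CoA, which the heart can oxidize or feed into the citric acid cycle.

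Bulk RNA from whole left ventricle was sequenced in 5 control mice, numbered TT-583 to TT-587, and 5 HFD+mTAC mice, numbered TT-588 to TT-592. Each library is that of a separate mouse. All were wild-type C57BL6 males, and mice of both groups are labeled as given vehicle, a solution of DMSO and PEG-300 in water at 10 mL/kg once a day for 6 to 9 weeks. HFD+mTAC mice ate a diet in which fat supplied 60% of the kilocalories. They underwent mTAC, a partial narrowing of the aorta that raises the pressure load on the left ventricle, at 11 weeks of age, and the induction lasted 16 weeks. Control mice had no mTAC and ate chow in which fat supplied 10%. As the diet and the operation were given to the same mice, their effects cannot be told apart here, and in bulk tissue fewer cells of a type cannot be told apart from less RNA per cell.

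The libraries held 34.2 to 53.7 M estimated counts each, of which 12.7 to 21.1 M fell on the genes tested. Mitochondrially encoded transcripts took 47.8% ± 3.57 of counts in control and 50.1% ± 2.37 in HFD+mTAC mice (SD, n = 5, two-sided exact permutation test p = 0.246). The tissue label was checked against marker genes. All 6 cardiomyocyte markers (Myh6, Myl2, Tnnt2, Tnni3, Actn2, Ryr2) were abundant. Their summed normalized read count was 42290 to 47983 CPM in control and 35970 to 42910 CPM in HFD+mTAC mice (CPM, counts scaled to the size of each library). The atrial markers Myl7 and Sln, 4 of 4 adipocyte markers and 5 of 5 skeletal muscle markers were below 1 CPM. The 4 atrial markers summed to 198 to 376 CPM in control and 122 to 338 CPM in HFD+mTAC mice (exact permutation p = 0.119), most of it from Nppa. The sum of the 6 cardiomyocyte markers was lower in HFD+mTAC mice (log2 difference -0.19, 5 of 6 genes lower, two-sided exact permutation test p = 0.0238). The summed fibroblast, endothelial, macrophage, and smooth muscle and pericyte markers did not differ detectably (exact permutation p between 0.571 and 0.857), and neither did those of red blood cells (p = 0.738). Of 3 brown adipocyte markers, Ucp1 was at 0 and Elovl3 below 1 CPM, and the sum of 33.0 to 45.1 CPM in control and 46.6 to 55.2 CPM in HFD+mTAC mice came almost wholly from Cidea (exact permutation p = 0.00794, the smallest that 5 mice against 5 allow).

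The start regions of Bckdha and Bckdhb are printed here because these genes encode the alpha and beta subunits that assemble into the same E1 enzyme, and the RNA of one was chosen for its fall while that of the other did not pass edgeR's test for a difference between the groups. The sequences come from RefSeq on GRCm38.p6 and run from 250 bases before to 50 bases after the transcript start, read 5′ to 3′ on the strand of the gene. Capitals mark the GC box GGGCGG and the CCAAT box CCAAT on either strand. The Bckdhb window is at chr9:83924887-83925186 (plus strand) and the Bckdha window at chr7:25658712-25659011 (minus strand).
Bckdhb: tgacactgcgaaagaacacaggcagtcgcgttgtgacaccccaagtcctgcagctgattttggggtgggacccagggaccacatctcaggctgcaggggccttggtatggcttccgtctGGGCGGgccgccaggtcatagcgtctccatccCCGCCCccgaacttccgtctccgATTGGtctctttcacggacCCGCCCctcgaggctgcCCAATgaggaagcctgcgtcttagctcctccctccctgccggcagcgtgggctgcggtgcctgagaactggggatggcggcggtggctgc
Bckdha: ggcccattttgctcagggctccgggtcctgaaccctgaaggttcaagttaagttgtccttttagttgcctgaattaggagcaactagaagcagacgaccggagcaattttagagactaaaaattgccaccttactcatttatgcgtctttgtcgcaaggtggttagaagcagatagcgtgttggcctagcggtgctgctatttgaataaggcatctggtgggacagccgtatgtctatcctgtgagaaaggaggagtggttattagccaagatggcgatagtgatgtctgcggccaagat
The Bckdhb window held 3 GC boxes and 2 CCAAT boxes, and 65% of its bases were G or C. The Bckdha window held neither motif and had a GC share of 48%, against a median of 52.7% over 32851 windows. The annotated start of Bckdha in GENCODE, at 25658981, lay 220 bases upstream of that of RefSeq. By GENCODE, most of the Bckdha window thus lies after the transcript start, so the 2 windows may not cover like regions. For Bckdhb the distance was 8 bases.

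Of the 10 genes, 9 had an entry in this table and Dbt had none. A GC box was found in 4 of 9 windows and in 35.7% of all windows, and a CCAAT box in 6 of 9 and 37.4%. The motif AAGGTCA, which estrogen-related receptors bind, was found on either strand in 0 of 9 and in 4.72% of all windows, and TATAAA in 1 of 9 and 13.6%. None of these 4 motifs contains another. A match is a description of the letters in these windows only.

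Bckdhb RNA was lower in every HFD+mTAC mouse than in every control mouse, whereas none of the other 9 genes separated the groups. In order of mouse number, the control mice had 88.3, 95.05, 84.2, 90.1 and 100.5 CPM, and the HFD+mTAC mice had 59.1, 73.5, 59.1, 63.4 and 59.9 CPM. The highest HFD+mTAC mouse, TT-589, lay below the lowest control mouse, TT-585, and the spread within each group was narrow. The means were 91.7 ± 6.29 and 63.0 ± 6.13 CPM (SD, n = 5), a ratio of 0.687, and the log2 fold change in edgeR was -0.54 (95% interval -0.72 to -0.36). Among the 13298 genes tested, 536 had a log2 fold change at or below this value. Bckdhb lies at chromosome 9, 83925145 to 84124240 (GRCm38, plus strand), with 3 coding transcripts among 6 annotated ones.

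TPM values, in which counts are also divided by transcript length, showed the same separation for Bckdhb. The control mice had 36.2, 36.7, 26.0, 27.3 and 36.3 TPM, compared to 18.6, 20.7, 17.97, 23.3 and 20.0 TPM for HFD+mTAC. On this scale control mice TT-585 and TT-586 stood closer to the HFD+mTAC mice than the other 3 control mice did. Expressed per 1000 CPM of the summed ventricular cardiomyocyte markers, which were lower in HFD+mTAC mice, Bckdhb was 2.05 ± 0.162 in control and 1.604 ± 0.0965 in HFD+mTAC mice, again without overlap, with a log2 difference of -0.35. With these markers as a covariate the log2 fold change in edgeR was -0.41 and its adjusted p 0.492. Over all genes this fit called 1 of 13298, against 8 in the main test, and 815 genes had an unadjusted p under 0.05, against 1099. Most of the marker sum came from Myl2, Tnnt2 and Tnni3 (means of 17001, 12593 and 7839 CPM over all mice). Their log2 fold changes in edgeR were -0.22, -0.20 and -0.22, and that of Myh6 was -0.21, whereas Actn2 had 0.02 and Ryr2 -0.07. The part of the cardiomyocyte markers in the difference of Bckdhb between the groups was not tested further.

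**Figure D1:**
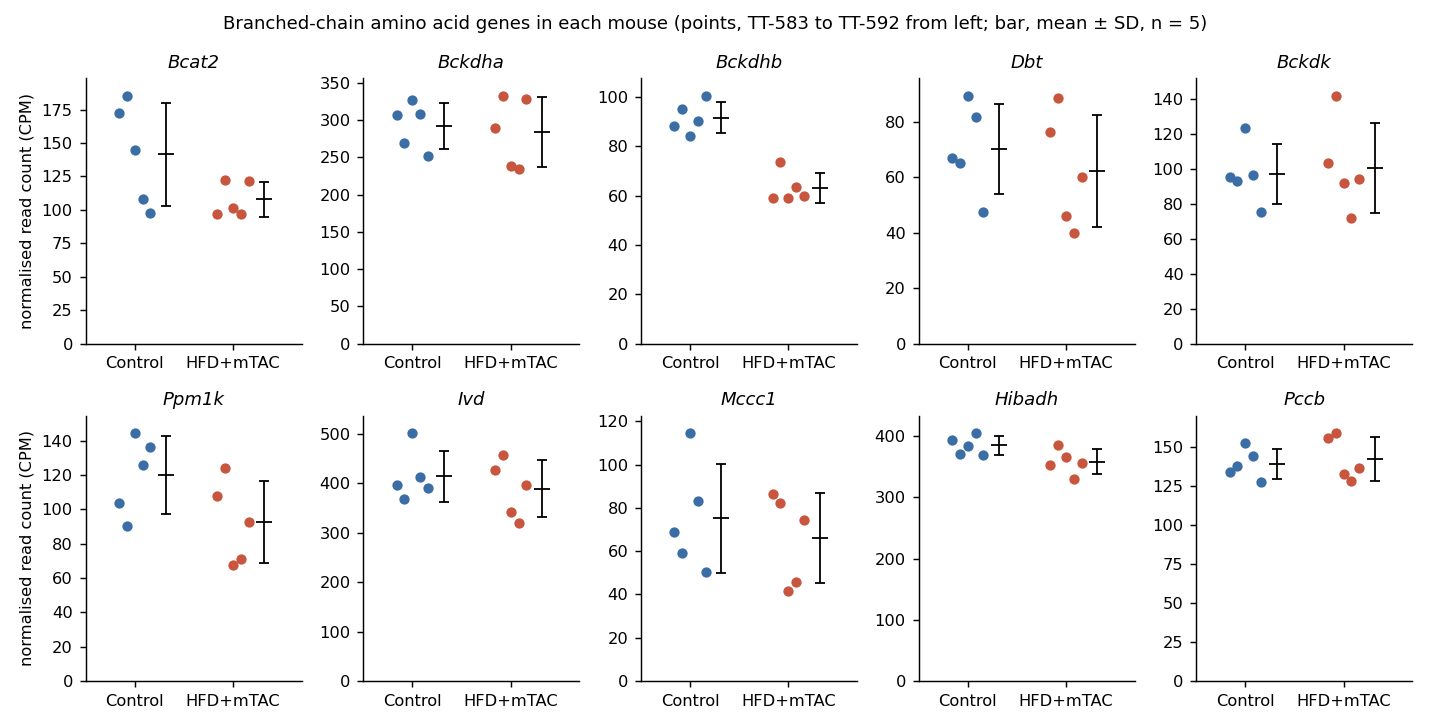
Normalized read counts (CPM, linear axis from 0) of the 10 genes in each of 5 control mice (blue) and 5 HFD+mTAC mice (red), in order of mouse number from left, with the mean ± SD beside them. Bckdhb separates the groups (84.2 to 100.5 against 59.1 to 73.5 CPM), and in the other 9 panels the points overlap.

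edgeR's quasi-likelihood test called 1 of the 10 genes at an adjusted p under 0.05, and this was Bckdhb, which chose the family. Bckdhb was no longer called when any single mouse other than TT-589 was left out (adjusted p between 0.0857 and 0.154 in edgeR), and without TT-589 its adjusted p was 0.0408. Over all genes tested the same threshold called 8 of 13298 (0.0602%). Of the other 9 genes, 0 were called and 1 had an unadjusted p under 0.05, against 1099 genes or 8.26% over all genes tested. Their adjusted p ran from 0.554 to 0.960, with 7 log2 fold changes below and 2 above zero and a median of -0.10, compared to a median of 0.0014 and 49.7% negative over all genes. Over all 10 genes the median was -0.14, and it was -0.04 without TT-585, -0.07 without TT-590, -0.06 without TT-591 and -0.22 without TT-589. HFD+mTAC mice were all below control mice in 1 of the 10 genes, again Bckdhb, and in 0.887% of all genes, and all above them in 0 of the 10 and in 1.08% of all genes.

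Bcat2 encodes the mitochondrial transaminase that starts the pathway in muscle. The control mice had 173, 185, 145, 108 and 97.7 CPM, and the HFD+mTAC mice 97.0, 123, 101, 96.7 and 122 CPM. TT-583 and TT-584 stood above all others while TT-586 and TT-587 lay within the HFD+mTAC range, so the groups overlapped. The log2 fold change was -0.39 (SE 0.17, adjusted p = 0.554 in edgeR, 0.0362 before adjustment). TT-583 and TT-584 were also the mice with the lowest mitochondrial share of counts (43.8% and 44.0%), and the part of this in the difference was not tested. Bcat2 lies at chromosome 7, 45570153 to 45589711.

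The other subunits of the dehydrogenase were not called. Bckdha, which encodes the E1 alpha subunit that carries the phosphorylation sites, ranged from 252 to 327 CPM in control and from 234 to 333 CPM in HFD+mTAC mice. The HFD+mTAC range enclosed the control range, with 2 mice below and 2 above it, and the log2 fold change was -0.04 (SE 0.12, adjusted p = 0.960 in edgeR). Dbt, which encodes the E2 transacylase that forms the core of the complex, ranged from 47.6 to 89.4 CPM in control and from 40.0 to 88.7 CPM in HFD+mTAC mice. Its log2 fold change was -0.17 (SE 0.22, adjusted p = 0.902 in edgeR), with a 95% interval from -0.64 to 0.30 that included the value of Bckdhb. Bckdha lies at chromosome 7, 25629946 to 25658981 (minus strand), where it overlaps B3gnt8 on the plus strand, and Dbt at chromosome 3, 116513070 to 116549981. Bckdhb is overlapped by the antisense gene Gm46124. The library kit keeps strand, and the strand setting of the quantification was not given in the sources used here.

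Bckdk, the kinase that inactivates the complex, and Ppm1k, the phosphatase that reactivates it, were compared next. They lie at chromosome 7, 127904082 to 127910221, and chromosome 6, 57506502 to 57535468. Bckdk ranged from 75.4 to 123 CPM in control and from 72.0 to 142 CPM in HFD+mTAC mice, with a log2 fold change of 0.06 (SE 0.17, adjusted p = 0.960 in edgeR). The control mice had 104, 90.3, 145, 126 and 137 CPM of Ppm1k, and the HFD+mTAC mice 108, 124, 67.8, 71.1 and 92.7 CPM. In CPM, TT-590 and TT-591 lay below the lowest control mouse, and in TPM 4 of the 5 HFD+mTAC mice did. The log2 fold change was -0.37 (SE 0.18, adjusted p = 0.620 in edgeR).

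The ratio of kinase to phosphatase RNA was formed within each mouse. From TPM the Bckdk to Ppm1k ratio of the control mice was 4.82, 6.20, 5.03, 8.76 and 2.83, and that of the HFD+mTAC mice 10.8, 8.61, 9.58, 6.19 and 8.19. Control mice TT-584 and TT-586 lay within the HFD+mTAC range, and HFD+mTAC mice TT-589, TT-591 and TT-592 within the control range. The means were 5.53 ± 2.17 and 8.68 ± 1.72 (SD, n = 5), and the mean log2 ratio was higher by 0.72 (two-sided exact permutation test p = 0.0556, 0.111 after adjustment over the 2 ratios tested). From estimated counts, which leave out the length correction, the ratio was 0.825 ± 0.180 and 1.096 ± 0.158, with a log2 difference of 0.43 (exact permutation p = 0.0317, 0.0635 after adjustment over the 2 ratios). From TPM the unadjusted exact permutation p was 0.0317 without TT-586 and 0.0476 without TT-591, and above 0.05 when any other mouse was left out. The Bckdha to Dbt ratio from TPM was 6.49 ± 0.947 in control and 7.37 ± 1.598 in HFD+mTAC mice (exact permutation p = 0.357, also 0.357 after adjustment).

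As a description, the Bckdhb to Bckdha ratio of estimated counts was 0.318 ± 0.0566 in control and 0.225 ± 0.0350 in HFD+mTAC mice, and the Bckdhb to Dbt ratio was 1.39 ± 0.451 and 1.09 ± 0.339. The groups overlapped in both ratios, whereas those of Bckdhb alone did not.

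**Figure D2:**
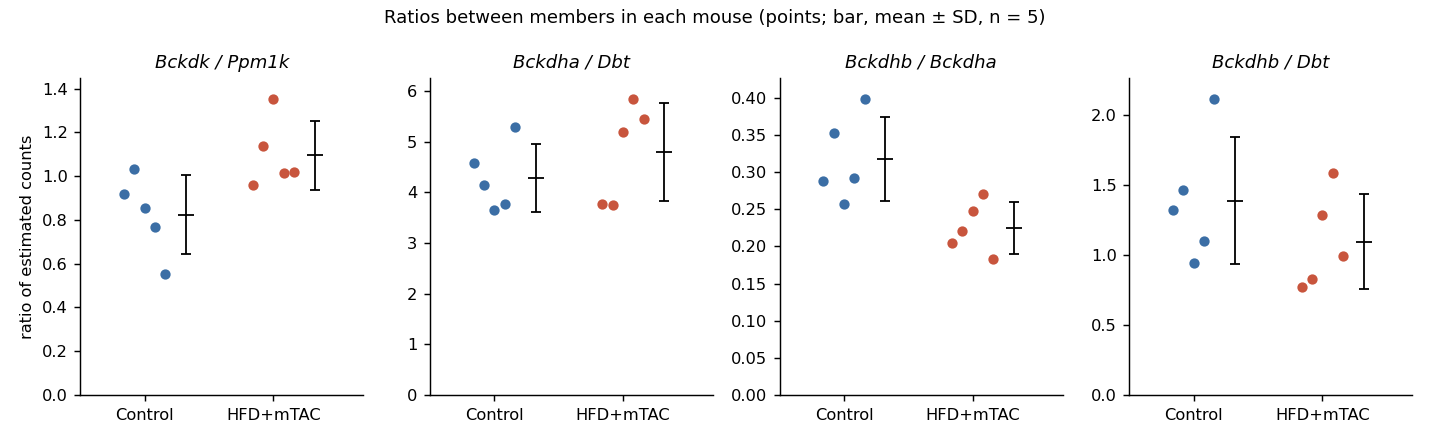
Ratios of estimated counts between genes (linear axes from 0) in each of 5 control mice (blue) and 5 HFD+mTAC mice (red), with the mean ± SD beside them. The Bckdk to Ppm1k ratio runs from 0.552 to 1.03 in control and from 0.958 to 1.35 in HFD+mTAC mice, and in every panel the ranges overlap.

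The genes downstream of the complex showed small differences with intervals around zero. Ivd encodes isovaleryl-CoA dehydrogenase of the leucine route and ranged from 369 to 502 CPM in control and from 320 to 458 CPM in HFD+mTAC mice (log2 fold change -0.09, SE 0.12). In TPM the mean of Ivd was higher in HFD+mTAC mice (35.8 against 29.9 TPM), whereas its median was lower (34.8 against 38.1 TPM). Control mouse TT-583 had the lowest value, 8.06 TPM, at an effective length of 8548 bases, and its part in the higher mean was not tested. In limma on log2(TPM + 1), with TPM rescaled over the genes tested, the difference was 0.49. The direction of Ivd thus depended on the unit and, in TPM, on the use of mean or median. Mccc1 encodes the biotin-carrying subunit of methylcrotonyl-CoA carboxylase, the next carboxylation of that route, and ranged from 50.4 to 115 CPM and from 41.6 to 86.3 CPM (log2 fold change -0.19, SE 0.25). Ivd lies at chromosome 2, 118861954 to 118882909, and Mccc1 at chromosome 3, 35959312 to 36000678, where the antisense genes Mccc1os and Gm15952 overlap it. In both genes TT-585 was the highest control mouse and the HFD+mTAC mice TT-590 and TT-591 lay below all control mice.

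Hibadh encodes 3-hydroxyisobutyrate dehydrogenase of the valine route and lies at chromosome 6, 52546228 to 52640389. The control mice had 395, 371, 384, 405 and 370.0 CPM, and the HFD+mTAC mice 353, 387, 367, 330 and 356 CPM. Here 4 of the 5 HFD+mTAC mice, all but TT-589, were below the lowest control mouse. The shift was small, with a log2 fold change of -0.10 (SE 0.07, adjusted p = 0.771 in edgeR). The mean TPM as deposited was also lower in HFD+mTAC mice (39.8 against 42.1 TPM). In limma on log2(TPM + 1), for which TPM was rescaled over the genes tested, the difference was 0.06. Pccb encodes the beta subunit of propionyl-CoA carboxylase, where the valine and isoleucine routes meet, and lies at chromosome 9, 100982032 to 101034898. It ranged from 128 to 153 CPM in control and from 128 to 159 CPM in HFD+mTAC mice (log2 fold change 0.03, SE 0.09, adjusted p = 0.952 in edgeR). The 95% interval for Pccb, -0.15 to 0.22, left out the estimate of Bckdhb (-0.54), and so did those of Hibadh (-0.26 to 0.05), Ivd (-0.34 to 0.16) and Bckdha (-0.30 to 0.22). The interval of Bckdhb itself reached up to -0.36. As Bckdhb was chosen for its fall, this is a description, and differences between genes in fold change were not tested.

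Levels between genes were compared per transcript length in TPM. In control mice the order was Hibadh (42.1 ± 6.13 TPM), Bckdhb (32.5 ± 5.35), Ivd (29.9 ± 15.2), Bckdha (13.0 ± 2.79), Bckdk (9.32 ± 2.79), Pccb (6.83 ± 1.43), Mccc1 (5.38 ± 1.85), Bcat2 (5.22 ± 2.51), Dbt (2.04 ± 0.519) and Ppm1k (1.73 ± 0.211, SD, n = 5). Neighbors in this order overlapped over the mice, except Bcat2 and Dbt. In HFD+mTAC mice Bckdhb (20.1 ± 2.09 TPM) stood after Ivd (35.8 ± 17.5 TPM), and the other genes kept their order.

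This order rested on the lengths that the quantification assigned. The average effective length of Bckdhb was 374 to 514 bases over the 10 mice, whereas its longest annotated coding transcript has 1477 bases. For Bcat2, Bckdha, Dbt, Ppm1k and Pccb the effective length exceeded the longest annotated coding transcript, by a factor of 2.22, 1.93, 1.69, 2.02 and 1.39 on average. When CPM was instead divided by the length of the longest annotated coding transcript, Bckdha (154 ± 16.1 CPM per kilobase) stood above Bckdhb (62.1 ± 4.26 CPM per kilobase) in control mice, and Bckdhb moved from rank 2 to rank 5. The order of the E1 subunits thus depended on the length used, and the annotation here is not of the release used to quantify the reads.

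The effective lengths, which the choice of the family had not used, were compared between groups. They move with the mix of transcripts and with the corrections for sequence, GC and position bias that the quantification made. For Bckdhb they were 441 ± 41.9 bases in control and 457 ± 53.0 bases in HFD+mTAC mice (SD, n = 5, two-sided exact permutation test p = 0.587). The lowest p was that of Dbt, with 5355 ± 340 and 5785 ± 223 bases (exact permutation p = 0.0476, 0.476 after adjustment over the 10 genes), and the other 9 genes had an exact p of at least 0.135. With single mice left out, the unadjusted exact p of Dbt ran from 0.0159 to 0.0952, that of Bckdha was 0.0476 without TT-592, and that of Ppm1k 0.0159 without TT-586. Ivd had the widest range, from 1169 to 8548 bases, and its high value in control mouse TT-583 went with the lowest Ivd level of all mice on the TPM scale (8.06 TPM) but not on the CPM scale (396 CPM).

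**Figure D3:**
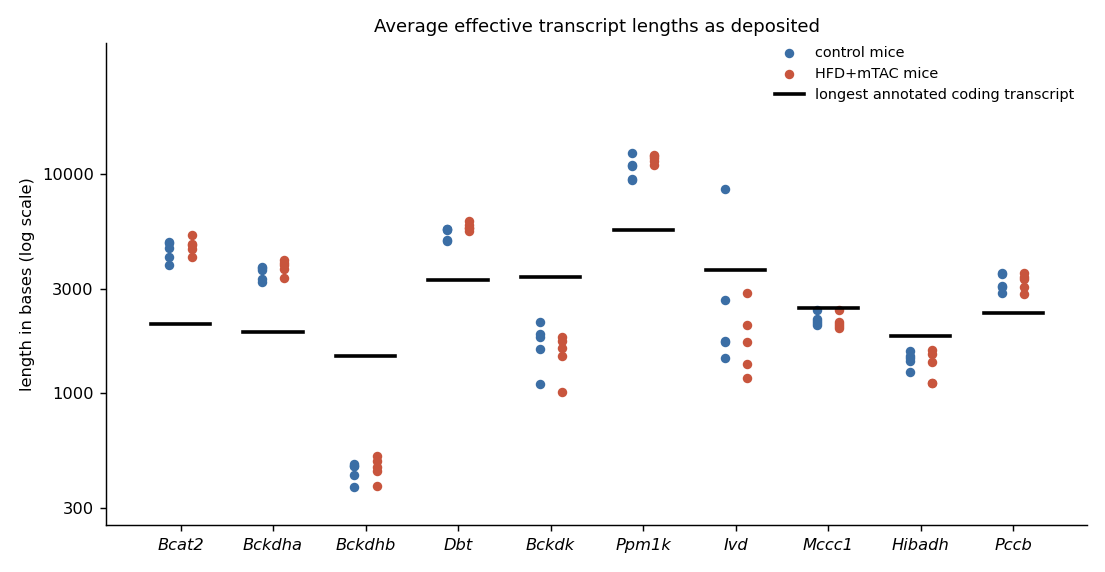
Average effective transcript length in bases (log scale) of the 10 genes in each of 5 control mice (blue) and 5 HFD+mTAC mice (red), with the longest annotated coding transcript as a black line. Bckdhb lies at 374 to 514 bases, under its line at 1477, Ivd shows the single high control mouse at 8548 bases, and the groups overlap for every gene.

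The genes other than Bckdhb and Bcat2 tended to be high or low in the same mice. After subtraction of each group's mean log2(CPM + 0.5), the 45 pairs of genes had a median Pearson's r of 0.63 over the 10 mice (range -0.24 to 0.96, 40 positive), against a median of 0.00 over all pairs of 10102 genes with a mean of at least 5 CPM. The highest values were those of Dbt with Pccb (r = 0.96) and of Dbt with Mccc1 (r = 0.92). Bckdhb had r between -0.20 and 0.29 to the other 9 genes and a median of 0.01, and its median over all genes with at least 5 CPM was also 0.01. Choice by a difference between the groups favors genes with a narrow spread within them, so the low r of Bckdhb says little about the pathway. Bcat2 had r between -0.24 and 0.43 and a median of 0.20. The 28 pairs of the 8 remaining genes had r between 0.41 and 0.96 and a median of 0.79. These values are a description, as all points come from the same 10 libraries.

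The mice that set this pattern can be named. TT-585 was the highest control mouse in 7 of the 10 genes and TT-589 the highest HFD+mTAC mouse in 9, while TT-587 was the lowest control mouse in 7 and TT-591 the lowest HFD+mTAC mouse in 7. TT-585 and TT-589 were the most deeply sequenced of their groups (53.7 and 46.7 M counts) and TT-587 the least (34.2 M), whereas TT-591 was the second deepest of its group (39.6 M). The part of depth in this pattern was not tested. Pdha1, outside the pathway, had the same highest and lowest mice. It had 1870 and 1288 CPM in TT-585 and TT-587, and 1922 and 1219 CPM in TT-589 and TT-591. Actn2 was also highest in TT-585 and lowest in TT-587 of the control mice, and lowest in TT-591 of HFD+mTAC mice. Myl2, in contrast, was highest of the control mice in TT-587. Whether the pattern is particular to this pathway was not tested.

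**Figure D4:**
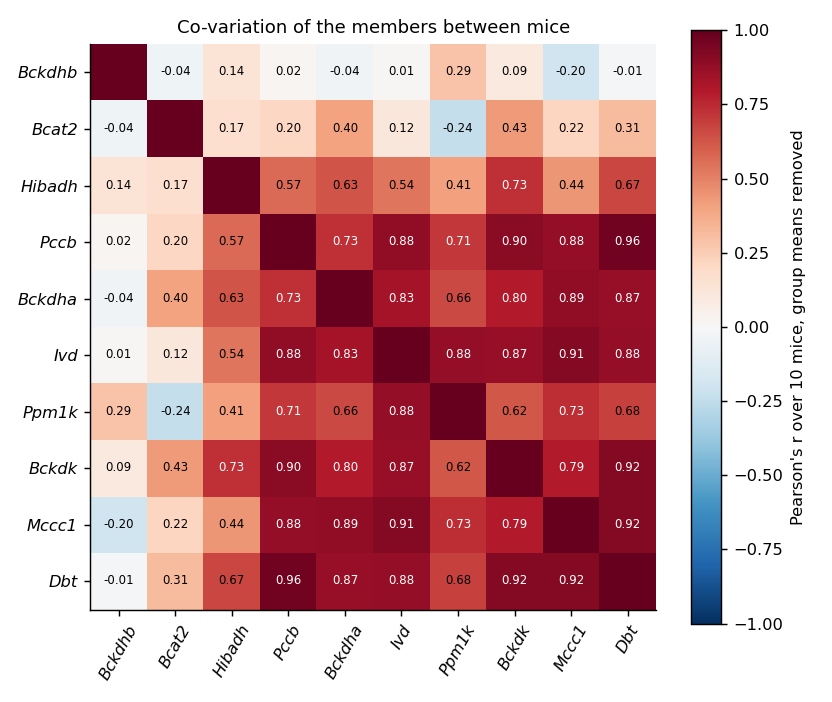
Pearson's r (color, from -1 to 1) between the log2 CPM of each pair of the 10 genes over 10 mice, after subtraction of the group means. The row of Bckdhb stays between -0.20 and 0.29 and that of Bcat2 between -0.24 and 0.43, while 7 genes from Pccb to Dbt in the lower right reach 0.62 to 0.96.

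Among 10101 other genes with a mean of at least 5 CPM, those whose group-centered log2 CPM varied most like that of Bckdhb over the 10 mice were Ltn1 (Pearson's r = 0.89, Spearman's rho = 0.68), Usp37 (0.89 and 0.87), Mmgt2 (0.88 and 0.76), Abracl (0.88 and 0.70) and Gcdh (0.86 and 0.78). They were picked as the highest of all. When TT-588 and TT-590 were left out, r was between 0.83 and 0.95. These mice were farthest from the median of Bckdhb before the group means were subtracted. TT-589, at 73.5 CPM against a mean of 63.0 CPM in HFD+mTAC mice, stayed in, so whether r rested on this mouse was not tested. None of the other 9 pathway genes was among these 5, which says little about them with only 5 places for 10101 genes.

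The rest of the pathway was taken from a list of 15 other enzymes, of which edgeR called 0 in either direction, against 0.0602% of all genes tested. Of these, 11 had log2 fold changes below and 4 above zero, 3 had an unadjusted p under 0.05, and the median was -0.07. Hsd17b10, the dehydrogenase of the isoleucine route, had 168, 201, 166, 172 and 201 CPM in the control mice, and 138, 150, 164, 153 and 161 CPM in the HFD+mTAC mice. In CPM all HFD+mTAC mice lay below all control mice in this gene alone of the 15 (0.887% of all genes), by a narrow margin between TT-590 and TT-585. Its log2 fold change was -0.24 (SE 0.09, adjusted p = 0.443 in edgeR). In TPM the groups overlapped, with 4 HFD+mTAC mice below the lowest control mouse (35.2 TPM) and TT-592 at 41.9 TPM. Acadsb, the short/branched-chain acyl-CoA dehydrogenase of the same route, was not called either (-0.25, SE 0.10, adjusted p = 0.510 in edgeR), nor was Mcee, the epimerase of the propionyl-CoA route (-0.21, SE 0.08, adjusted p = 0.478 in edgeR).

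The other enzymes described here had log2 fold changes between -0.14 and 0.21. In the leucine route these were Mccc2, the partner subunit of Mccc1 (0.02), and the hydratase Auh (-0.04). In the valine and isoleucine routes they were the dehydrogenase Acad8 (-0.14), the hydratase Echs1 (-0.07), the hydrolase Hibch (-0.03), the dehydrogenase Aldh6a1 (-0.10) and the thiolase Acat1 (0.17). Pcca, the partner subunit of Pccb, had -0.10 and Mut, methylmalonyl-CoA mutase, -0.06. Dld, the E3 subunit that the complex shares with pyruvate dehydrogenase, had -0.08, and Bcat1, the cytosolic transaminase, had a low level of 1.85 ± 0.683 CPM in control mice (0.21, SE 0.38).

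Of 6 carriers of branched-chain amino acids, 0 were called, against 0.0602% of all genes tested. Slc7a8, a plasma membrane exchanger of neutral amino acids, was at 6.96, 6.73, 5.93, 6.13 and 5.27 CPM in the control mice, and at 4.74, 4.29, 4.31, 3.82 and 3.81 CPM in the HFD+mTAC mice. In this 1 of the 6 carriers the groups did not overlap, at a low level, as in 0.887% of all genes tested. The log2 fold change was -0.57 (SE 0.15, adjusted p = 0.267 in edgeR). The log2 fold change was 0.19 for Slc7a5, the large neutral amino acid transporter, and 0.03 for Slc3a2, its partner chain. It was -0.39 (SE 0.32) for Slc43a1 and 0.24 for Slc43a2, further carriers of neutral amino acids, and 0.03 for Slc25a44, the mitochondrial carrier of branched-chain amino acids.

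**Figure D5:**
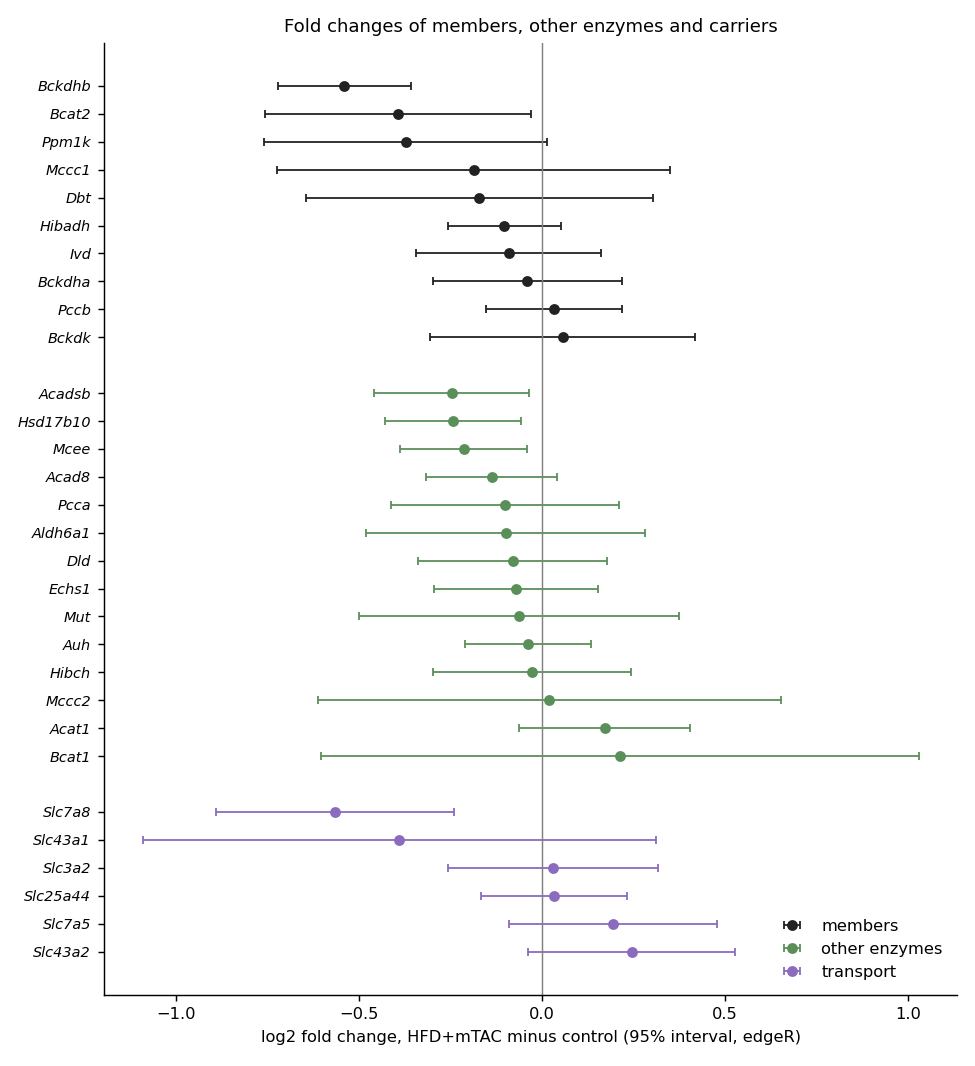
Log2 fold changes (HFD+mTAC minus control) with 95% intervals from edgeR for the 10 genes (black), 14 of the 15 other enzymes (green) and 6 carriers (purple), each sorted by size. Bckdhb (-0.54) is the lowest of the 10 genes and Slc7a8 (-0.57) the lowest carrier, and most other intervals include zero.

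Genes around the pathway gave the same count. Of 11 cofactor and electron acceptor genes, 0 were called, and the most abundant were the electron transfer flavoprotein genes Etfb (log2 fold change -0.03) and Etfa (0.00) and their oxidoreductase Etfdh (0.27, SE 0.18). Of 14 genes of the related pyruvate and oxoglutarate dehydrogenases and their kinases and phosphatases, 0 were called, and the most abundant were Pdhb, the E1 beta subunit of pyruvate dehydrogenase (-0.12), Ogdh (0.13) and Pdha1 (0.05). Of 4 regulators of these metabolic genes, 0 were called, and the most abundant were the coactivator Ppargc1a (-0.13), Mlxipl (-0.22) and Klf15 (0.45, SE 0.23, adjusted p = 0.664 in edgeR). The kinase Pdk4, named after its values were seen, had 0.60 (SE 0.27, adjusted p = 0.597 in edgeR). Over the 5 lists together edgeR called 0 of 50 genes, against 0.0602% of all genes tested, a share at which 0 calls say little about the lists. DESeq2 and limma also called 0 of the 50 genes. Of these, 5 had an unadjusted p under 0.05 (Hsd17b10, Acadsb, Mcee, Slc7a8 and Pdk4), against 8.26% over all genes, and 31 log2 fold changes were below and 19 above zero.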

How the data were processed

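Left ventricular RNA of 5 control and 5 HFD+mTAC mice was analyzed, grouped by the sample labels, which give no batch and no pairing. Per the methods of the study, reads of stranded mRNA libraries were trimmed (fastp), assigned to mouse GENCODE transcripts by salmon 1.6.0 with bias correction, and summed to genes by tximport. The labels list the build hg38 although the gene symbols are those of mouse, and the read layout differs between the labels (single-end) and the methods (paired-end).

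The authors deposited estimated counts per gene without normalization, of which 20.07% are not whole, and TPM values, which divide by transcript length and are scaled within a mouse. The average effective transcript lengths in bases were also deposited by the authors. Of 29564 symbols, 27812 matched the GENCODE annotation of GRCm38 directly, 869 through an older symbol and 883 did not.

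Estimated counts were rounded and tested with edgeR 4.0.16 in R 4.3.3 (TMM normalization, quasi-likelihood test, group as the only term, Benjamini-Hochberg adjustment over 13298 genes). Tested genes were protein-coding, not mitochondrially encoded, and had at least 1 count in at least 9 of 10 mice. CPM used TMM library sizes. For single values, exact permutation tests (two-sided, scipy 1.17.1) were run. The scripts were tested on simulated counts. Within groups, pairs of libraries differed by a chi-square per degree of freedom of at least 12.9 (20 pairs), far above repeats of 1 library.

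The genes and lists were chosen with earlier results of these data known. Named were the 10 genes, all genes of the lists of other enzymes and carriers, the 3 most abundant genes in control mice (TPM) of the other lists and any called there, the 5 genes most like Bckdhb, and cell type markers. Of the other enzymes, 1 enters the counts of its list but is not reported here by itself. Alternatives were DESeq2 1.42.0 and its size factors, upper-quartile normalization, limma 3.58.1 on log2(TPM + 1) and log2(TPM + 0.1), other filters, all biotypes, lengths as an offset, the robust test and omission of each mouse. For limma, TPM was first rescaled to the same total in each mouse over the genes tested. Scaling to cardiomyocyte markers, these markers as a covariate, and CPM per kilobase were added after seeing the data.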

Additional observations from a re-analysis of the deposited data

Results flagged for a closer look

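In 60 sets of 5 mice (each of the 10 genes in each group, on 3 scales), 2 held a mouse far from the other 4, by a test in which chance marks about 1 in 20 groups. Dbt in control mouse TT-587 was 1.146 TPM, whereas the other control mice had 2.04 to 2.36 TPM, a gap of 0.737 of the range of the group against a critical value of 0.71. The average effective length of Ivd in control mouse TT-583 was 8548 bases, whereas the other control mice had 1453 to 2653 bases, a gap of 0.831 of the range.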

How the results depend on the processing

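Of the 10 genes, 1 (Bckdhb) was called by the main test and under DESeq2, other scalings, filters, biotypes and the robust test, and 0 were called with limma on log2(TPM + 1) or log2(TPM + 0.1), with lengths as an offset, or with cardiomyocyte markers as a covariate. With single mice left out the count was 0 to 1, and it was 1 only without TT-589. Over all genes, edgeR called 8, DESeq2 120, limma, the offset and the marker covariate 1 each, and the omission of single mice 1 to 9. The median log2 fold change of the 10 genes, -0.14 in the main test, was -0.085 and -0.087 with limma, and -0.22 to -0.04 with single mice left out. The 50 genes of the other lists stayed at 0 under every alternative run. The log2 fold change of Bckdhb was -0.41 with the marker covariate and -0.35 divided by the markers, with an adjusted p from 3.568e-06 (DESeq2) to 0.639 (limma).

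No gene that changed sign had been called by the main test. Divided by the cardiomyocyte markers, the log2 difference was 0.14 for Bckdha, 0.10 for Ivd, 0.0002185 for Mccc1 and 0.088 for Hibadh. With limma at both pseudocounts, on rescaled TPM, and with the offset, Ivd had 0.49, 0.49 and 0.29 and Hibadh 0.060, 0.061 and 0.040. The mean TPM of Hibadh as deposited was lower in HFD+mTAC mice (39.8 against 42.1 TPM). With single mice left out, log2 fold changes ran from -0.11 to 0.021 for Bckdha, -0.11 to 0.16 for Bckdk, -0.31 to 0.018 for Mccc1 and -0.015 to 0.069 for Pccb. Differences in effective length ran from -0.594 to 36.1 bases for Bckdhb, -116 to 7.82 for Mccc1 and -66.2 to 116 for Pccb. The log2 Bckdk to Ppm1k ratio ran from 0.50 to 0.91, and it was 0.43 from counts. In control mice Bckdhb stood at rank 5 in CPM per kilobase. The cause was not tested for any of these. With 5 mice per group, the 95% intervals of Bcat2, Dbt, Ppm1k and Mccc1 included the log2 fold change of Bckdhb.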
